A study of Mus musculus with 10 samples.

Results

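The genes described here encode the enzymes that add methyl groups to histone lysines or take them off, together with the core subunits that 2 of these enzyme families need. They were chosen by gene name, as a list of 49 mouse symbols. The rule names no measured value, but the list was drawn up with earlier results of these data known. All 49 had an entry among the 18444 genes of the expression table, and all 49 passed the filter on low values (a mean of at least 10 normalised counts over the 10 libraries), which left 17020 genes for testing. Of the 49 genes, 34 were grouped as writers or their core subunits and 15 as erasers.

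Whole brains were taken from male C57BL/6N pups on postnatal day 3, and their poly-A RNA was sequenced. The HT group held 5 mice heterozygous for *Arid1b*, which encodes a DNA-binding subunit of the BAF chromatin remodelling complex, and the WT group held 5 wild-type mice. In HT mice a Cas9 nickase deletion around exon 5 truncates the protein from 1 *Arid1b* allele in every cell of the body, and all HT mice come from 1 edited line, kept by mating HT males to WT females. Each mouse gave 1 library, so that p-values rest on the spread between mice. The comparison asks whether transcripts of the methylation machinery differ in level when 1 copy of a chromatin remodeller is lost.

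Writers transfer methyl groups from S-adenosylmethionine to a lysine, mostly through a SET domain, and the lysine they choose sets the meaning of the mark. H3K4 methylation lies at active promoters and enhancers, H3K36 and H3K79 methylation over transcribed genes, and H3K9, H3K27 and H4K20 methylation at silent or compacted chromatin. Erasers reverse these marks with a flavin cofactor (the LSD family) or with iron and 2-oxoglutarate (the Jumonji family). Mutations in many of these genes cause human neurodevelopmental disorders, as do mutations in *ARID1B*.

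Values are normalised read counts, the estimated reads of a gene divided by the size factor of the library. The libraries held 27.2 to 29.03 M normalised counts in total (M, 1000000). The log2 fold change is HT minus WT on log2(value + 1), given with its standard error (SE). Tests are two-sided limma tests adjusted by the Benjamini-Hochberg method over the 17020 genes, beside a two-sided exact permutation test for single genes, which cannot give less than 0.00794 for 5 against 5 libraries. One library, HT 4, stood apart from the other 9. Its score on the first principal component was 53.9, against -23.4 to 9.81 in the others, and its deviations from the gene means had a Spearman correlation with transcript length of -0.496, against -0.176 to 0.337. Results are therefore given with all 10 libraries and again without HT 4, where the smallest exact p is 0.0159.

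*Arid1b* itself matched the labels. Its counts in HT 1 to HT 5 were 2372, 2230.1, 2253, 1505 and 2142, and in WT 1 to WT 5 they were 3386, 3155, 3597, 3429 and 3108. Every HT library lay below every WT library, and mean HT expression was 63.0% of that in WT. Its fold change on the log2 scale was -0.68 ± 0.11, with an exact permutation p of 0.00794 and a limma adjusted p of 0.390. Without HT 4 it was -0.57 with an adjusted p of 2.47e-04. Markers of neurons, astrocytes and radial glia, the oligodendrocyte lineage and GABAergic cells were present in every library.

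No member of the methylation machinery passed the adjusted threshold of 0.05. Across all 10 libraries 0 of 49 passed, beside 0 of 17020 genes (0%), and the limma adjusted p was 1.00 for each of the 49. At an unadjusted p under 0.05 there was 1 member, *Smyd3*, against 580 genes (3.41%) over the whole table. The groups did not overlap in 1 member, *Phf8*, against 107 genes (0.629%). Without HT 4, 0 of 49 passed the adjusted threshold (all genes 0.0118%), 3 had an unadjusted p under 0.05, namely *Smyd3*, *Kmt2d* and *Ezh2* (all genes 8.38%), and 2 had groups that did not overlap, *Smyd3* and *Phf8* (all genes 2.96%). Log2 fold changes of the 49 ran from -0.24 (*Suv39h2*) to 0.18 (*Smyd3*).

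How many members were lower in HT depended on 1 library. With all libraries 42 of 49 members were lower in HT and 7 higher. Their median log2 fold change was -0.054, while 53.6% of all tested genes were lower, at a median of -0.0074. Without HT 4, 23 members were lower and 26 higher, with a median of 0.0021, beside 50.4% of all genes lower and a median of -0.00089. In bulk tissue fewer cells of a type and less RNA per cell cannot be told apart, here and in all results that follow.

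**Figure D1:**
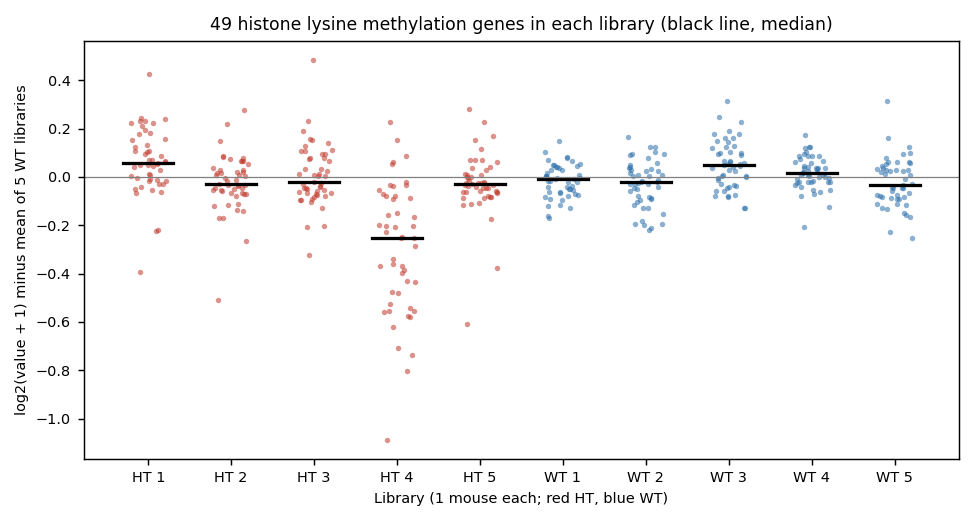
Deviation of each of the 49 members from its WT mean (log2) in each of the 10 libraries, with the median of the members per library. HT 4 sits lowest with a median of -0.25, while the other 9 medians lie between -0.033 and 0.060.

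Over the 49 members, the median deviation from the WT mean was 0.060, -0.030, -0.019, -0.25 and -0.028 in HT 1 to HT 5 and -0.0098, -0.023, 0.051, 0.015 and -0.033 in WT 1 to WT 5. HT 1 lay just above the highest WT library, WT 3, and HT 4 lay below all others, while HT 2, HT 3 and HT 5 lay inside the WT range. HT 4 had the lowest of the 10 values in 36 of the 49 members and lay below the WT mean in 44. The SD of these library medians was 0.116 in HT, 0.0338 in WT and 0.0430 in HT without HT 4.

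The members are long transcripts. The longest coding transcript of a member had a median of 6130 bases, from 1680 (*Smyd2*) to 19823 (*Kmt2d*), against 3060 over all tested genes. Set against the mean of the other 4 HT libraries, HT 4 was lower by a median log2 of -0.25 over the members, where the median of all genes was 0.014. The difference ran from -1.18 for *Kmt2e* to 0.41 for *Ezh2*. It was -0.099 at the median of the 24 shortest members and -0.46 at the median of the 24 longest.

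Across the 49 members the difference of HT 4 and transcript length had a Spearman correlation of -0.808, and over all tested genes it was -0.490. These are correlations across genes within 1 library, and genes are not independent replicates. When a smooth trend of each library on length and GC content was removed, 37 of 49 members were lower in HT (45.7% of all genes) and the median log2 fold change was -0.030. When HT 4 was left out as well, 27 were lower (45.4% of all genes) and the median was -0.0066. Leaving out HT 4 alone did not remove the relation to length. With no trend removed, the log2 fold changes of the 49 members had a Spearman correlation with transcript length of -0.262 with all libraries. Without HT 4 it was 0.430. What sets these trends with length was not tested.

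**Figure D2:**
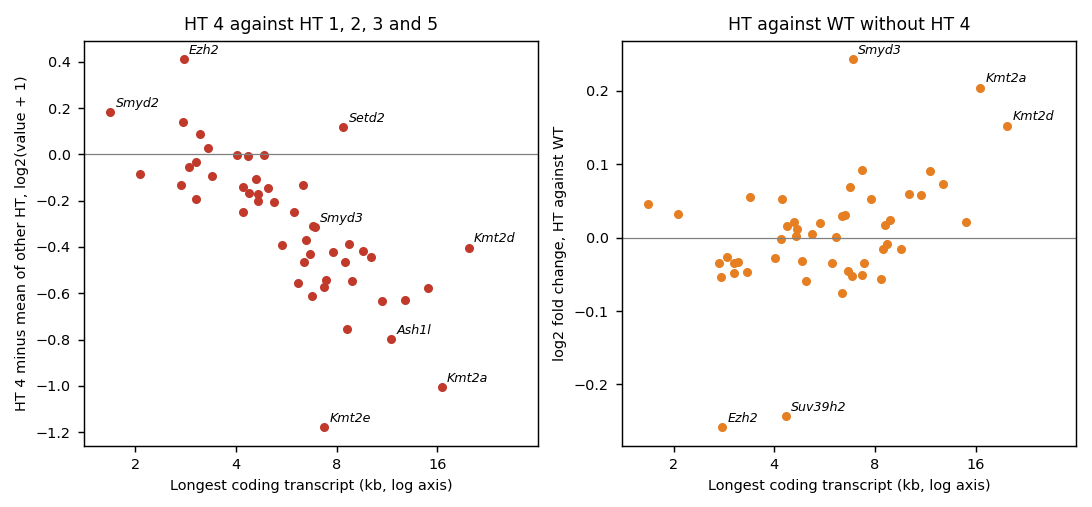
Left, log2 difference of HT 4 from the mean of the other 4 HT libraries against the length of the longest coding transcript in kb (log axis), 1 point per member. There the members tend to lie lower the longer they are, and they span 0.41 (*Ezh2*) to -1.18 (*Kmt2e*). Right, log2 fold change (HT minus WT) without HT 4 against the same length, with a Spearman correlation of 0.430.

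In WT brain every member was expressed, and levels differed widely between members. By 1 choice of length, the longest coding transcript, the highest WT levels were those of the H3K9 dimethylase *Ehmt2* (G9a) at 1677 ± 61.2 normalised counts per kb (mean ± SD, n = 5), the H3K4 demethylase *Kdm1a* (LSD1) at 1358 ± 63.6 and the H3K36 dimethylase *Nsd2* at 1258 ± 48.0. *Ehmt2* and *Kdm1a* were separated by more than their SDs, while *Kdm1a* and *Nsd2* lay within the sum of theirs. *Smyd2* followed at 929.8 ± 65.5 and *Setd5* at 808 ± 77.9, and the median member stood at 369.

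At the low end, *Setdb2* stood at 43.7 ± 6.13 and *Suv39h2* at 47.9 ± 7.30 normalised counts per kb, which did not differ beyond their spread. *Kdm7a* followed at 71.2 ± 5.71 and *Kdm5a* at 110.1 ± 9.51. *Setdb1* and *Suv39h1*, close relatives of the 2 lowest members, stood higher in the order, at 567 ± 21.6 and 328 ± 8.03. The order depends on which transcript is used. With the median length of the coding transcripts, 20 of the 49 levels moved by more than 1.5 times, and the orders by both lengths had a Spearman correlation of 0.696. *Ehmt2* then stood at 1770.2 normalised counts per kb, behind *Nsd1* at 6298, *Prdm2* at 3285, *Kdm1a* at 2005 and *Setd1a* at 1970.4. By the longest transcript *Nsd1* stood at 529.6 and *Prdm2* at 277.

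**Figure D3:**
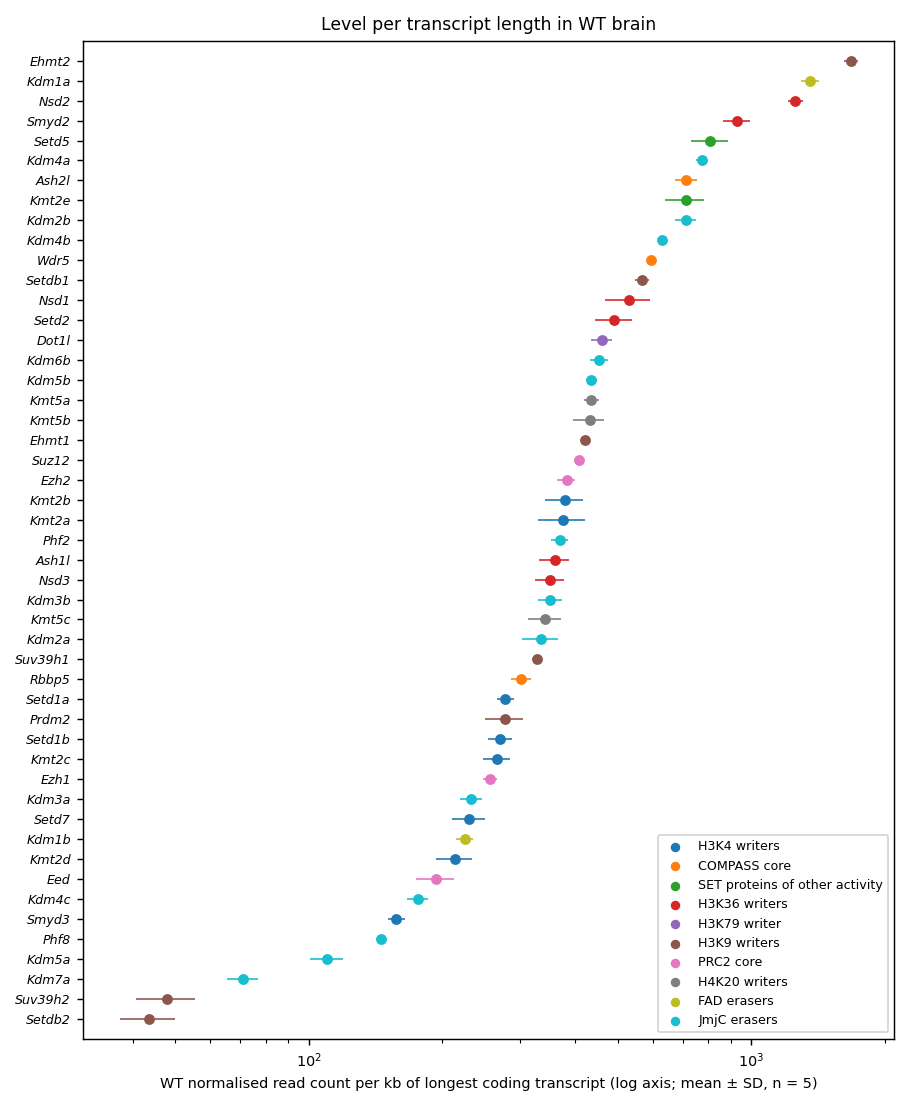
Normalised counts per kb of the longest coding transcript (log axis) for the 49 members, as mean and SD over 5 WT libraries, ordered by the WT mean. *Ehmt2* leads at 1677 and *Setdb2* is last at 43.7 in WT.

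For the members, the coefficient of variation over the 5 WT libraries had a median of 5.61%, from 1.95% for *Ehmt1* to 15.2% for *Suv39h2*. It was not compared with that of all genes.

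The promoters of the members are shown by 3 of them, because *Suv39h2* had the lowest log2 fold change, *Phf8* was the member whose groups did not overlap, and *Ezh2* was the lowest without HT 4. They were picked after their values were seen. Each run gives the 250 bases before the RefSeq start on GRCm38.p6, 5′ to 3′ on the strand of the gene, with matches to searched motifs in capitals. The gene positions given further below are from GENCODE, whose starts can differ. By them the *Ezh2* window lies inside the gene and the *Suv39h2* window partly inside.
Suv39h2, chr2:3474987-3475236, minus strand: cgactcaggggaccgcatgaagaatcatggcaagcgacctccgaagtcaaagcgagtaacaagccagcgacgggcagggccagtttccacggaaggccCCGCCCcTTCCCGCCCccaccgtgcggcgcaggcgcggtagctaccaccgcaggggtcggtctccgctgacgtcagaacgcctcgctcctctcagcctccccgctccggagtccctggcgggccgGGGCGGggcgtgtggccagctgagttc
Phf8, chrX:151520422-151520671, plus strand: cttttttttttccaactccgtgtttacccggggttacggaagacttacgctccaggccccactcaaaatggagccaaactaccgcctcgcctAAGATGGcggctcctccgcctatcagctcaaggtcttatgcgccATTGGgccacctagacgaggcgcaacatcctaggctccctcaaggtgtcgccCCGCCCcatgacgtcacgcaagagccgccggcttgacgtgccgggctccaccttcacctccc
Ezh2, chr6:47595031-47595280, minus strand: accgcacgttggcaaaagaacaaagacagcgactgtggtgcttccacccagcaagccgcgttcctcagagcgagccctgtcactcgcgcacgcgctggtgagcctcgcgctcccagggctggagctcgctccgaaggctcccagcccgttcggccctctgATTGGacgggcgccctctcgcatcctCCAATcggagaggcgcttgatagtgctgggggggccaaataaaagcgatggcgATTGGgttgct

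The capitals mark 3 GC boxes in *Suv39h2*, 1 of which overlaps a match to the E2F motif. In *Phf8* they mark 1 GC box, 1 CCAAT box and 1 YY1 motif, and in *Ezh2* they mark 3 CCAAT boxes. A match is a description of the letters and not a measured binding site.

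RefSeq promoter windows of 300 bases (250 before the start and 50 after) were at hand for 34 of the 49 members. They were rich in CpG, with a median of 26 CpG per window and a median ratio of observed to expected CpG of 0.88, where the medians of all 27025 promoters were 7 and 0.389. Members ranged from 0 CpG (*Kdm4c*) to 65 (*Kdm7a*). The median GC content was 62% in members, from 39.7% (*Setd5*) to 88% (*Kmt2c*), and 52.7% in all promoters. On either strand, the GC box (GGGCGG) was present in 21 of 34 members (61.8%), against 35.9% of all promoters. The TATA box (TATAAA) was present in 0 of 34, against 14.2%.

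The other motifs were searched in the same windows. The CCAAT box (CCAAT) was in 12 of 34 members (35.3%, all promoters 37.9%) and the ETS motif (CCGGAAG) in 3 (8.82%, all promoters 9.12%). The E2F motif (TTCCCGC) was in the promoters of *Kmt5c*, *Suv39h2* and *Suz12* (8.82%, all promoters 4.66%), and the YY1 motif (AAGATGG) in 5, those of *Dot1l*, *Phf8*, *Setd1a*, *Suv39h2* and *Wdr5* (14.7%, all promoters 6.48%). The NRF1 motif (GCATGCG) was in 1 of 34, *Smyd2* (2.94%, all promoters 3.64%).

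The H3K4 writers numbered 8, and with all libraries 3 were higher and 5 lower in HT, none past the adjusted threshold. Their median log2 fold change was -0.065 with HT 4 and 0.027 without it, when 6 were higher and 2 lower. *Smyd3* (chr1:178951960-179518041, minus strand, GRCm38), a SET and MYND domain methyltransferase reported to act on histone and cytoplasmic substrates, had counts of 1273, 1315, 1273, 1031 and 1269 in HT 1 to HT 5 and 1037, 1061, 1061, 1157 and 1106 in WT 1 to WT 5. The HT libraries other than HT 4 all lay above the highest WT library, and HT 4 lay below the lowest.

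*Smyd3* averaged 1232 ± 114 in HT and 1084 ± 47.8 in WT (5 mice each, ± SD). This difference was, on the log2 scale, 0.18 ± 0.069, with an unadjusted limma p of 0.0220, and the exact permutation p was 0.0476. Without HT 4 the log2 fold change was 0.24, the unadjusted limma p 1.78e-04 and the adjusted p 0.232. Over all alternatives tried, its adjusted p ran from 0.232 to 1.000, so *Smyd3* did not pass in any of them.

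*Kmt2a* encodes MLL1, which maintains H3K4 methylation at developmental genes. Its counts were 8252, 6495, 6855, 3523 and 6835 in HT 1 to HT 5 and 6362, 5312, 7292, 6253 and 5693 in WT 1 to WT 5. HT 1 was the highest of the 10 libraries and HT 4 the lowest, and the other 3 HT libraries lay inside the WT range. This gave a log2 fold change of 0.0025 ± 0.19 with HT 4 and 0.20 without it (unadjusted limma p 0.0541). With length and GC trends removed and HT 4 left out, the log2 fold change of *Kmt2a* was 0.12 (unadjusted limma p 0.0798).

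*Kmt2d*, an enhancer H3K4 monomethylase mutated in Kabuki syndrome, had counts of 4982, 4679.8, 4695, 3548 and 4438 in HT 1 to HT 5 and 4425, 4608, 3995, 3656 and 4518 in WT 1 to WT 5. HT 1, HT 2 and HT 3 lay above all 5 WT libraries and HT 4 below them. HT minus WT came to a log2 fold change of 0.071 ± 0.091. Without HT 4 it was 0.15 with an unadjusted limma p of 0.0322 and an adjusted p of 0.563. *Kmt2d* is the longest member, and with length and GC trends removed and HT 4 left out its value was 0.065 (unadjusted limma p 0.384).

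*Setd7*, an H3K4 monomethylase that also methylates other proteins, had counts of 1733, 1709, 1705, 1139 and 1507 in HT and 1702, 1671, 1921, 1718 and 1515 in WT, in the order of the replicate numbers. HT 4 was lowest, HT 5 just below the lowest WT library, and the remaining 3 inside the WT range. *Setd7* had a log2 fold change of -0.14 ± 0.11 with HT 4 and -0.034 without it. The other 4 members of the group gave -0.11 (*Kmt2b*), -0.094 (*Kmt2c*), -0.043 (*Setd1a*) and -0.086 (*Setd1b*), and without HT 4 -0.016, 0.021, 0.031 and 0.024.

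The H3K4 writers of the MLL and SET1 families work with a shared core, of which 3 subunits were members. Log2 fold changes were -0.041 ± 0.049 for *Ash2l*, -0.037 ± 0.043 for *Wdr5* and 0.036 ± 0.055 for *Rbbp5*, and none reached an unadjusted p under 0.05. Their transcripts are 2890 to 3385 bases long, and HT 4 differed from the other HT libraries by a median log2 of -0.053 in them, against -0.50 in the 8 H3K4 writers.

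*Kmt2e* and *Setd5* carry SET domains whose own methylating activity is debated, and both are autism and intellectual disability genes. *Setd5* had counts of 6299, 5583, 5865, 3731 and 5129 in HT 1 to HT 5 and 5708, 4886, 6013, 5778 and 4905 in WT 1 to WT 5. HT 1 was highest and HT 4 lowest of all 10. The log2 fold change of *Setd5* was -0.054 ± 0.12 with HT 4 and 0.069 without it, and that of *Kmt2e* was -0.14 ± 0.21 and 0.091, so that both changed sign when HT 4 was left out.

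Among the 6 H3K36 writers, 1 was higher and 5 lower in HT with all libraries, and 5 were higher and 1 lower without HT 4. *Nsd1*, the Sotos syndrome gene, had counts of 7973, 6767, 6880.4, 4587 and 6791 in HT 1 to HT 5 and 6439.6, 6539.5, 7519.7, 7601 and 5751 in WT 1 to WT 5. *Ash1l*, an H3K36 dimethylase linked to autism, had counts of 4791, 4232, 4506, 2559.5 and 4299.8 in HT and 4298, 3823, 4481, 4494 and 3867 in WT, in the same order. In both genes HT 1 was the highest library and HT 4 the lowest.

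The log2 fold change of *Nsd1* was -0.052 ± 0.13 with HT 4 and 0.074 without it. That of *Ash1l* was -0.070 ± 0.14 and 0.090. *Smyd2*, which methylates H3K36 and other proteins, had counts of 1553, 1546, 1648, 1824 and 1691 in HT and 1472, 1701, 1598, 1430.1 and 1609 in WT. It was the shortest member, its HT 4 value was the highest of all 10 libraries, and the groups overlapped. Its log2 fold change was 0.081 ± 0.064, and without HT 4 0.045.

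*Setd2*, the enzyme that trimethylates H3K36 behind RNA polymerase, gave -0.034 ± 0.067 with HT 4 and -0.057 without it, and was the one H3K36 writer that stayed lower. *Nsd2* and *Nsd3* gave -0.032 and -0.029, and 0.052 and 0.060 without HT 4.

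*Dot1l* is the main H3K79 methyltransferase of mammals. Its counts were 3239.7, 2988, 2912, 2439 and 2949 in HT 1 to HT 5 and 2979, 3024, 3338, 3294 and 3033 in WT 1 to WT 5. HT 3, HT 4 and HT 5 lay below every WT library, while HT 1 and HT 2 lay inside the WT range. As a log2 fold change, HT minus WT was -0.11 ± 0.070 (unadjusted limma p 0.132), and -0.052 without HT 4.

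All 7 H3K9 writers were lower in HT (median -0.073), and 6 of 7 were lower without HT 4 (median -0.034). None passed the adjusted threshold. *Suv39h2* (chr2:3455815-3475031, minus strand), an H3K9 trimethylase of pericentric heterochromatin, had counts of 176, 199, 164, 173 and 158 in HT 1 to HT 5 and 193, 219, 256, 197 and 173 in WT 1 to WT 5. The groups overlapped, since HT 1, HT 2 and HT 4 lay above the lowest WT library, and WT 3 was the highest of all.

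*Suv39h2* averaged 174 ± 15.5 in HT and 207 ± 31.6 in WT (5 mice each, ± SD). On the log2 scale the difference was -0.24 ± 0.11, the unadjusted limma p 0.0520 and the exact permutation p 0.0794. It was the same to 2 decimals without HT 4, at -0.24 (unadjusted limma p 0.0639). Leaving out any other single library gave values from -0.31 (without WT 5) to -0.17 (without WT 3).

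*Ehmt1* encodes GLP, the partner of G9a and the Kleefstra syndrome gene. Its counts were 2592, 2397, 2378, 2059 and 2432 in HT 1 to HT 5 and 2500.3, 2566, 2549, 2464 and 2458 in WT 1 to WT 5. HT 1 was the highest of all 10 libraries, and the other 4 HT libraries lay below every WT library. In *Ehmt1* the log2 fold change was -0.084 ± 0.058 (unadjusted limma p 0.174) with HT 4 and -0.034 without it.

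*Prdm2* (RIZ1) is a PR domain protein with H3K9 activity. Its counts were 2032, 1856, 1896, 1311 and 2018 in HT 1 to HT 5 and 2237, 1762, 2209, 2017 and 1908 in WT 1 to WT 5. HT 4 was the lowest library, and the other HT libraries lay inside the WT range. This gave a log2 fold change of -0.16 ± 0.11 with HT 4 and -0.051 without it. The remaining 4 gave -0.039 (*Setdb1*), -0.073 (*Setdb2*), -0.028 (*Ehmt2*) and -0.016 (*Suv39h1*), and 0.0021, -0.035, -0.027 and -0.034 without HT 4.

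**Figure D4:**
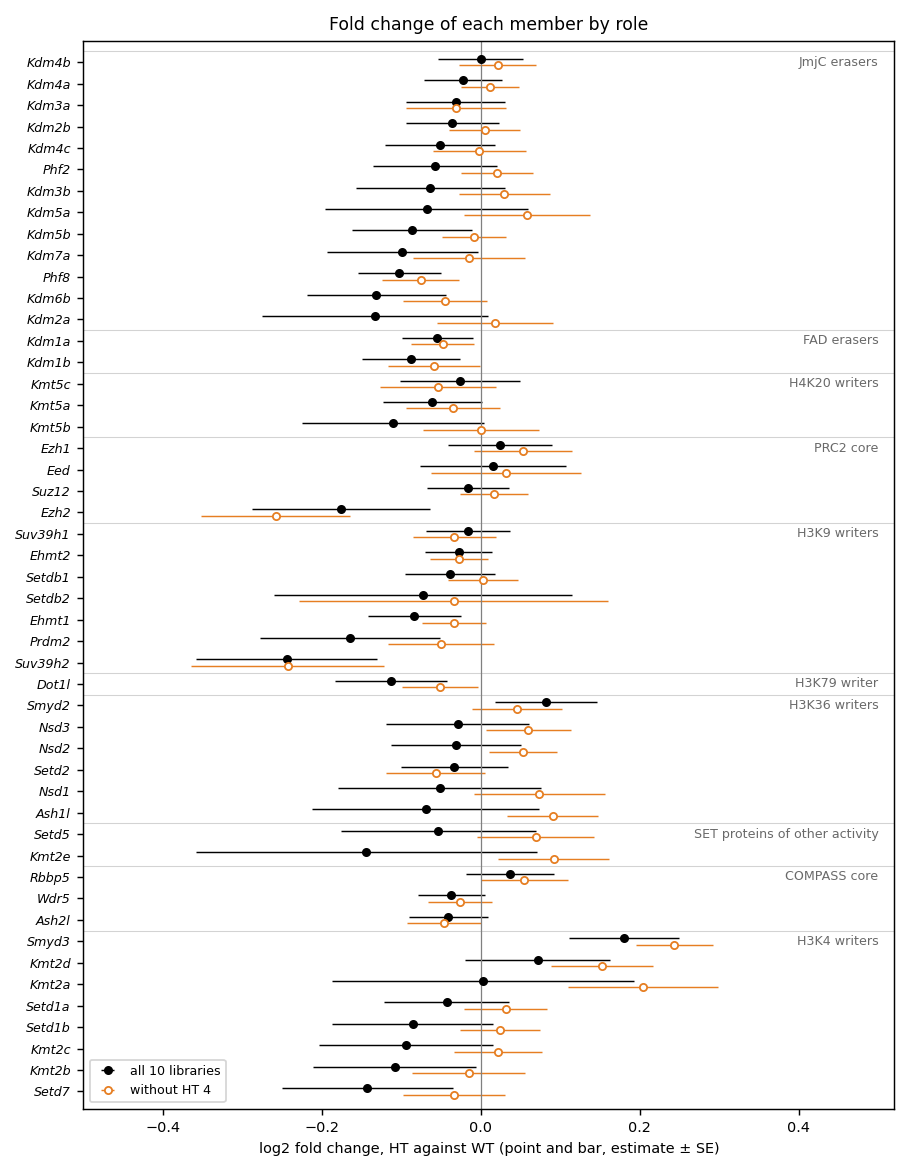
Log2 fold change (HT minus WT) with its SE for the 49 members by role, with all 10 libraries and without HT 4. The medians of the 49 are -0.054 and 0.0021, and *Smyd3* at 0.18 and 0.24 is the highest in both.

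The PRC2 core writes H3K27 methylation, with *Ezh2* as the main enzyme of dividing progenitors and *Ezh1* as that of postmitotic cells. *Ezh2* (chr6:47530139-47595341, minus strand) had counts of 1019, 886, 998, 1185 and 699 in HT 1 to HT 5 and 1049, 1137, 1011, 1092 and 1041 in WT 1 to WT 5. HT 4 was the highest of all 10 libraries and HT 5 the lowest, and HT 2 and HT 3 also lay below every WT library. The group means were 957 ± 179.7 in HT and 1066 ± 49.1 in WT.

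The log2 fold change of *Ezh2* was -0.18 ± 0.11, with an unadjusted limma p of 0.139 and an exact permutation p of 0.222. Without HT 4 it was -0.26, with an unadjusted limma p of 0.0164, an adjusted p of 0.493 and an exact permutation p of 0.0317. Without HT 5 it was -0.068. HT 4 and HT 5 thus pulled the value of *Ezh2* in opposite directions.

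HT 5 also had the lowest sum of markers of dividing cells, and the sum of HT 4 was second only to that of WT 1. The summed counts of 6 markers of dividing cells, all tested and none at 0, were 5831, 5482, 5721, 6904 and 4507 in HT 1 to HT 5 and 7202, 5866, 6889.8, 6350.5 and 5495 in WT 1 to WT 5. All 6 were lower in HT, 1 of them at an unadjusted p under 0.05 and 0 at the adjusted threshold, and the exact permutation p of the sum was 0.190. Summed counts of 5 cerebellar markers (5 of 5 lower in HT, none at 0) were 8848 in HT 4 and 5005 in HT 5, the highest and the lowest of all 10 libraries, and 6817 to 8654 in WT. The part that these cells play in the values of *Ezh2* was not tested.

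*Ezh1* had counts of 1267, 1056, 1136, 1015 and 1036 in HT 1 to HT 5 and 1111, 1083, 1036, 1127 and 1047 in WT 1 to WT 5, with HT 1 highest and HT 4 lowest of all 10 libraries. Its log2 fold change was 0.024 ± 0.065, and without HT 4 0.053. The core subunits *Eed* and *Suz12* gave 0.015 ± 0.092 and -0.017 ± 0.052, and 0.032 and 0.016 without HT 4.

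The 3 H4K20 writers were all lower in HT, and 2 of 3 without HT 4. *Kmt5b*, which makes H4K20 dimethylation and is an autism gene, had counts of 3079, 2534, 2549.8, 1792 and 2429.5 in HT 1 to HT 5 and 2558, 2481, 2877, 2865 and 2434 in WT 1 to WT 5. HT 4 was lowest and HT 1 highest of all 10, HT 5 lay just below the lowest WT library, and HT 2 and HT 3 lay inside the WT range. The log2 fold change of *Kmt5b* was -0.11 ± 0.11 with HT 4 and 0.00026 without it. *Kmt5a*, the H4K20 monomethylase of mitosis, gave -0.061 ± 0.062 and *Kmt5c* gave -0.026 ± 0.075, and without HT 4 -0.035 and -0.054.

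The erasers were lower in HT in 15 of 15 cases (median log2 fold change -0.064) and in 8 of 15 without HT 4 (median -0.0019). None passed the adjusted threshold. *Kdm1a* encodes LSD1, which removes H3K4 methyl groups within the CoREST complex. Its counts were 3962, 3955, 3924, 3886 and 4056 in HT 1 to HT 5 and 3938, 3944, 4109, 4168 and 4406 in WT 1 to WT 5, and both groups overlapped with the 3 highest values in WT. HT minus WT came to a log2 fold change of -0.055 ± 0.045, and -0.048 without HT 4.

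*Kdm1b* (LSD2), its relative, had counts of 1099, 1138, 975, 974 and 1102 in HT 1 to HT 5 and 1051, 1143, 1093, 1153 and 1173 in WT 1 to WT 5. HT 3 and HT 4 were the lowest libraries, and the others lay inside the WT range. As a log2 fold change, HT minus WT was -0.088 ± 0.061 with HT 4 and -0.059 without it.

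*Phf8* (chrX:151520672-151633859, plus strand) is an X-linked Jumonji demethylase of H3K9 and H4K20, mutated in a form of intellectual disability with cleft lip. Its counts were 898, 879, 887, 803 and 859 in HT 1 to HT 5 and 965, 909.7, 906, 914 and 948 in WT 1 to WT 5. Every HT library lay below every WT library, with HT 1 and WT 3 closest. The means were 865 ± 37.4 in HT and 928 ± 26.2 in WT (5 mice each, ± SD).

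The log2 fold change of *Phf8* was -0.10 ± 0.052, the exact permutation p 0.00794, the smallest possible, and the unadjusted limma p 0.0689. Groups that do not overlap always give this exact p, so it adds nothing to the lack of overlap, which 107 genes (0.629%) had. Without HT 4 it was -0.076, the exact permutation p was 0.0159, again the smallest possible, and the unadjusted limma p was 0.139. The groups then still did not overlap, as in 504 genes of the table (2.96%).

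*Kdm6b* (JMJD3), an H3K27 demethylase that opens genes for neural differentiation, had counts of 3038, 2674, 2823, 2166 and 3162 in HT 1 to HT 5 and 3073, 2982, 3228, 2931 and 2859 in WT 1 to WT 5. HT 2, HT 3 and HT 4 lay below every WT library, while HT 1 and HT 5 lay inside the WT range. On the log2 scale the difference was -0.13 ± 0.088 with HT 4 and -0.046 without it.

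*Kdm5b*, an H3K4 demethylase, had counts of 4035, 3652, 3677, 2882 and 3729 in HT 1 to HT 5 and 3665, 3739, 3905, 3894 and 3772 in WT 1 to WT 5. HT 1 was highest and HT 4 lowest of all 10. For *Kdm5b* the log2 fold change was -0.087 ± 0.076 with HT 4 and -0.0091 without it.

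The other 10 Jumonji erasers ran from -0.13 (*Kdm2a*, an H3K36 demethylase) to -0.00040 (*Kdm4b*, an H3K9 and H3K36 demethylase), and none reached an unadjusted p under 0.05. Without HT 4 the 13 Jumonji erasers ran from -0.076 (*Phf8*) to 0.058 (*Kdm5a*, an H3K4 demethylase), with 7 higher and 6 lower in HT. The H3K9 demethylases *Kdm3a* and *Kdm3b* gave -0.032 and -0.064 with HT 4 and -0.031 and 0.029 without it.

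**Figure D5:**
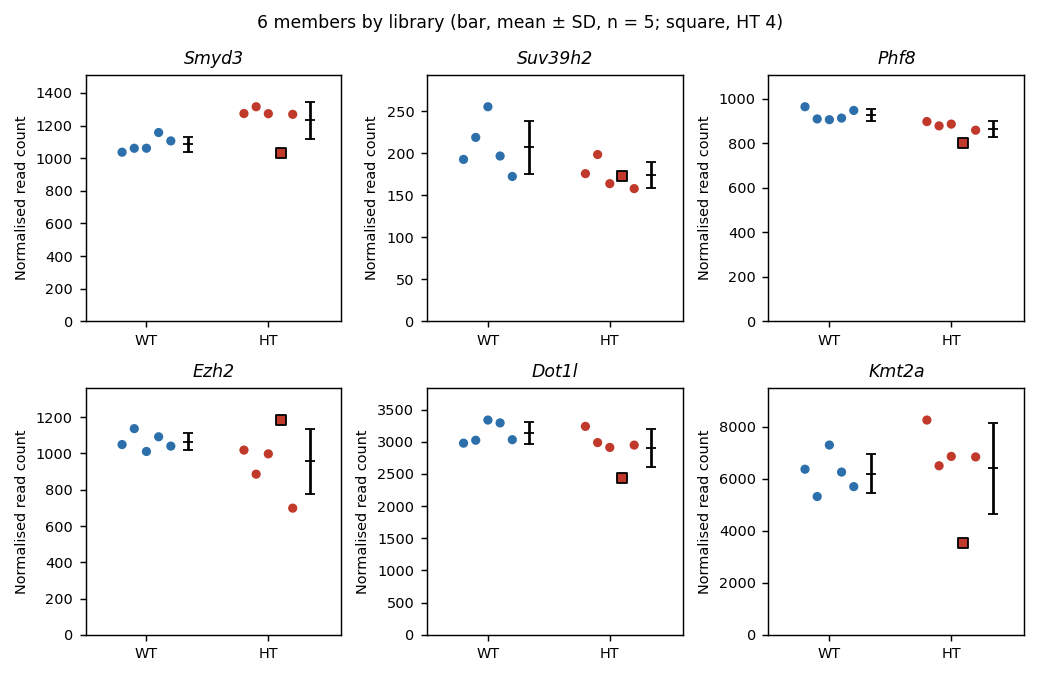
Normalised counts of 6 members in each of the 5 HT and 5 WT libraries, with HT 4 marked and group means with SD. *Phf8* shows no overlap, *Smyd3* has HT 4 as the only HT library below the WT range, and *Ezh2* has its highest and lowest values in HT 4 and HT 5.

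Ratios of paralogs within a library are free of the scaling of that library. They are not free of a trend with transcript length where the lengths differ, as for *Kmt2a* (16470 bases) and *Kmt2b* (8469 bases). The log2 ratio of *Ezh2* to *Ezh1* was -0.31, -0.25, -0.19, 0.22 and -0.57 in HT 1 to HT 5 and -0.083, 0.071, -0.035, -0.044 and -0.0079 in WT 1 to WT 5. HT 4 was the highest library and the other 4 HT libraries lay below every WT library. The difference, HT minus WT, was -0.20 with an exact permutation p of 0.183, or 0.365 after adjustment over the 4 ratios tested.

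Without HT 4 the difference of *Ezh2* to *Ezh1* was -0.31 with an exact permutation p of 0.0159 and an adjusted value of 0.0635, and without HT 5 it was -0.11. The ratio of *Kmt2a* to *Kmt2b* differed by 0.11 (exact permutation p 0.421, adjusted 0.452), and by 0.22 without HT 4 (exact permutation p 0.0317, adjusted 0.0635). The ratio of *Suv39h1* to *Suv39h2* differed by 0.23 (exact permutation p 0.0952, adjusted 0.365) and by 0.21 without HT 4. That of *Ehmt1* to *Ehmt2* differed by -0.056 (exact permutation p 0.452, adjusted 0.452). None of the 4 passed 0.05 after adjustment, with or without HT 4. Without HT 4, a ratio at the smallest possible exact permutation p, 0.0159, comes to 0.0635 unless other ratios are small too. No ratio could thus pass by itself in that setting. With length and GC trends removed over all 10 libraries, the differences were -0.20 (*Ezh2* to *Ezh1*) and 0.097 (*Kmt2a* to *Kmt2b*). They were 0.20 for *Suv39h1* to *Suv39h2* and -0.025 for *Ehmt1* to *Ehmt2*.

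Of 42 partner genes that are not members, such as subunits of the same complexes and readers of the same marks, 15 were higher and 27 lower in HT (median log2 fold change -0.017), and 0 passed the adjusted threshold. At an unadjusted p under 0.05 there were 3 with all libraries, beside 3.41% of all genes, namely *Pagr1a* (0.78 ± 0.31), a subunit of the MLL3 and MLL4 complexes, *Prdm8* (-0.16 ± 0.063) and the PRC2 cofactor *Aebp2* (-0.13 ± 0.054). Without HT 4, 23 partners were higher and 19 lower, and 1 higher and 3 lower had an unadjusted p under 0.05, beside 8.38% of all genes.

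*Pagr1a* was a low gene, with counts of 43.6, 25.7, 48.4, 27.9 and 66.8 in HT 1 to HT 5 and 14.1, 23.2, 20.3, 40.2 and 23.3 in WT 1 to WT 5, and its groups overlapped. The sex-linked relatives of the members, *Kdm5c*, *Kdm6a*, *Kdm5d* and *Uty*, were lower in HT in 4 of 4 cases, from -0.11 to -0.042, and 3 of 4 were higher without HT 4.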

How the data were processed

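Groups and replicate numbers came from the sample labels. Poly-A RNA was made into libraries with a kit that the labels name as stranded. Per the study's methods, the authors quantified paired-end reads with Salmon against GRCm38 with a GC-bias correction, imported genes with tximport and divided them by DESeq2 size factors. The submitters' processing notes name Salmon 1.1.0, R 4.1.1 and DESeq2 1.30.1. The values the authors deposited are thus a signal, 1 normalised read count per gene and library. Whole reads were not recovered, since at best 30.7% of small values were whole multiples of a step (tolerance 0.02), so no count test was run and counting error was not modelled. The annotation release is not given in the sources used here. Symbols, positions and transcript lengths were taken from GENCODE M21 and promoter windows from RefSeq.

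Values were analysed as log2(value + 1), which understates the change of low genes, with limma 3.58.1 in R 4.3.3 (trend and robust), over the 17020 genes with a mean of at least 10. Genotype was the only term, the threshold was 0.05 on Benjamini-Hochberg adjusted p, and the workflow was tested on simulated data. Exact permutation tests ran over the 252 assignments of 5 against 5 libraries, or 126 for 4 against 5, and were two-sided. Values in every library are given for the 12 members with the smallest p, any member past a rule and 12 members known in neurodevelopment. The members, role groups, partner genes and marker lists (neurons, glutamatergic, GABAergic and dividing cells, astrocytes and radial glia, oligodendrocyte lineage, microglia, endothelium, erythroid cells, choroid plexus, cerebellum, liver and muscle) were chosen with earlier results of these data known. The labels gave no batch.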

Additional observations from a re-analysis of the deposited data

Results flagged for a closer look

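For the targeted gene, the 49 members, their median and the 4 paralog ratios, the library farthest from the others in each group of 5 was compared with Dixon's limit for 5 values (the gap to its nearest neighbour as a share of the range). Of 110 groups checked, 13 lay past the limit, where chance passes about 1 in 20, or 5.5. The groups come from the same 10 libraries and are not independent checks, so the count is a description and not a test. In 11 of the 13 the far library was HT 4, and it was the lowest. Its gap ratio was 0.776 for *Arid1b*, 0.719 for *Kmt2a*, 0.729 for *Kmt2c*, 0.781 for *Setd1b*, 0.853 for *Smyd3*, 0.834 for *Kmt2e*, 0.792 for *Nsd3*, 0.802 for *Ash1l*, 0.794 for *Prdm2* and 0.753 for *Phf2*. For the median deviation over the members it was 0.713.

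WT supplied the other 2. *Rbbp5* had its lowest value far from the rest in WT 2, with a ratio of 0.725, and *Kdm2a* had its highest value far from the rest in WT 3, with a ratio of 0.790. HT 4 had lower *Arid1b* than the other HT libraries, and the *Arid1b* result without it is given above.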

How the results depend on the processing

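The alternatives were pseudocounts of 0.5 and 10, no filter on low values, a mean of at least 100, equal library totals, quantile normalisation, sample weights, no robust step, the replicate block, removal of length and GC trends, that removal without HT 4, and leaving out each library. The count of members lower in HT under each was added after seeing the data. No member passed the adjusted threshold in any of them, while 0 to 2 of all genes did with 1 library left out and 2 with sample weights, with trends removed, and with trends removed without HT 4.

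Without 1 library, members at an unadjusted p under 0.05 ran from 0 (without WT 1, where 2.96% of all genes had one) to 3 (without HT 4, 8.38%), members without overlap from 1 to 2 (2 without HT 1, 1.76% of all genes, and without HT 4, 2.96%), members lower in HT from 23 (without HT 4) to 43, and the median log2 fold change from -0.082 to 0.0021. Counts at an unadjusted p under 0.05 were 2 with equal totals (3.27% of all genes), 4 with sample weights (7.52%) and 3 with trends removed without HT 4 (7.95%), where 2 members did not overlap (2.72%) and 27 were lower. *Arid1b* ran from -0.73 to -0.57 without 1 library. It passed at -0.60 with sample weights, -0.66 with trends removed and -0.61 with trends removed without HT 4. The level per kb of *Ehmt2*, the highest by the longest transcript, was 1770.2 by the median transcript length, where 4 members stood above it.

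The replicate numbers share no stated litter or day. Same-numbered libraries correlated at 0.0911, 0.0843, 0.0815, -0.104 and 0.0926, and none was over 0.1, so the samples were taken to share only a number. As a hint from the data and not the design, 4 of 5 HT libraries correlated best with their own number. With the replicate block 0 members had an unadjusted p under 0.05 (3.28% of all genes), 1 had no overlap, 42 were lower and *Arid1b* was at -0.68. Exact paired p values of the ratios were 0.25 (*Ezh2* to *Ezh1*), 0.4375 (*Ehmt1* to *Ehmt2* and *Kmt2a* to *Kmt2b*) and 0.0625 (*Suv39h1* to *Suv39h2*). The value of 0.0625 is the smallest that this two-sided test of 5 pairs can give, so no ratio could pass 0.05 in it.

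Of 1029 member values under alternatives, 951 kept their direction and 78 changed it, 44 of these with 1 library left out and 19 without HT 4, and 22 members never changed it. Changed values were -0.0041 (*Kmt2a*) with equal totals, and -0.0069 (*Kmt2a*) and 0.0019 (*Kdm4b*) with quantile normalisation. With sample weights they were 0.014 (*Setd1a*), 0.030 (*Kmt2e*), 0.021 (*Setd5*), 0.022 (*Nsd1*), 0.031 (*Nsd2*), 0.035 (*Nsd3*), 0.039 (*Ash1l*), 0.010 (*Suz12*), 0.022 (*Kdm4b*), 0.031 (*Kdm5a*) and 0.012 (*Phf2*). With trends removed they were 0.0081 (*Setd2*), 0.018 (*Nsd2*), 0.021 (*Suz12*), 0.0029 (*Kdm4a*) and 0.013 (*Kdm4b*). With trends removed without HT 4 they were 0.032 (*Setd1a*), 0.0040 (*Setd1b*), 0.063 (*Kmt2e*), 0.049 (*Setd5*), 0.0046 (*Nsd1*), 0.016 (*Nsd2*), 0.0088 (*Nsd3*), 0.031 (*Ash1l*), 0.0081 (*Suz12*), 0.0094 (*Kdm2b*), 0.026 (*Kdm3b*), 0.023 (*Kdm4a*), 0.036 (*Kdm4b*), 0.0040 (*Kdm5a*) and 0.029 (*Phf2*). The cause was not tested.

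With 1 library left out, the ranges of members that changed direction were -0.10 to 0.20 (*Kmt2a*), -0.15 to 0.021 (*Kmt2c*), -0.090 to 0.031 (*Setd1a*), -0.13 to 0.024 (*Setd1b*), -0.23 to 0.091 (*Kmt2e*), -0.12 to 0.069 (*Setd5*), -0.084 to 0.0070 (*Setd2*), -0.13 to 0.074 (*Nsd1*), -0.073 to 0.052 (*Nsd2*), -0.075 to 0.060 (*Nsd3*), -0.14 to 0.090 (*Ash1l*), -0.062 to 0.0021 (*Setdb1*), -0.21 to 0.036 (*Setdb2*), -0.036 to 0.012 (*Suv39h1*), -0.027 to 0.053 (*Ezh1*), -0.028 to 0.056 (*Eed*), -0.039 to 0.016 (*Suz12*), -0.19 to 0.00026 (*Kmt5b*), -0.069 to 0.023 (*Kmt5c*), -0.22 to 0.017 (*Kdm2a*), -0.061 to 0.0049 (*Kdm2b*), -0.065 to 0.0022 (*Kdm3a*), -0.12 to 0.029 (*Kdm3b*), -0.040 to 0.011 (*Kdm4a*), -0.043 to 0.021 (*Kdm4b*), -0.14 to 0.058 (*Kdm5a*) and -0.096 to 0.020 (*Phf2*).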

Other observations

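Markers of other tissue and cell types also differed between libraries. The summed counts of 4 choroid plexus markers were 9413, 8274, 9521, 9416 and 6650.0 in HT 1 to HT 5 and 10237, 12077, 10123, 13659 and 12814 in WT 1 to WT 5. Every HT library lay below every WT library (exact permutation p 0.00794, the smallest possible), all 4 genes were lower in HT, and *Ttr*, the transthyretin of cerebrospinal fluid, makes up most of the sum. The liver list shares *Ttr* and ran from 6199 to 9031 in HT and from 9523 to 13032 in WT. Nearly all of that sum is *Ttr* again. *Alb* averaged 3.97 in HT and 8.29 in WT, and *Apoa1* averaged 12.0 in HT and 8.14 in WT.

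HT 4 had the lowest sum of the 10 libraries for 6 neuronal markers, at 159599 against 165531 to 172629.7 in WT. The same held for 5 glutamatergic markers, at 16223 against 19254 to 20905 in WT. Single markers did not all follow these sums. *Map2*, *Syt1* and *Rbfox3* were lowest in HT 4, but *Tubb3* and *Stmn2* were highest there and *Snap25* was neither. Of the glutamatergic markers, *Slc17a6* was highest in HT 4 and the rest were lowest. It was the highest for astrocytes and radial glia, at 39623 against 29719 to 35721, for the oligodendrocyte lineage, at 16166 against 11233 to 13198, and for endothelium, at 4549 against 4099 to 4355.

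The remaining lists overlapped between the groups. Sums ran from 13575 to 15293 in HT and from 13344 to 14123 in WT for GABAergic cells, and from 939 to 1447 and 1049 to 1939 for microglia, whose 6 genes were all lower in HT. Erythroid sums ran from 5937 to 13668 and from 4519.7 to 13813, and muscle sums from 106 to 173 and from 107 to 267. The part of these cells in the values of the methylation genes was not tested.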
